A study of Homo sapiens with 5 samples.

Results

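RNA polymerase II (RNAPII) at promoters was compared between RPE1 cells that lack both CFAP20 and CCNC (CFAP20/CCNC-dKO, 1 library) and WT RPE1 cells (WT replicate 1), at every transcription start site (TSS) with a density profile in both libraries. These were 9814 TSSs of 9794 genes, out of 9944 listed TSSs of 9913 genes. The remaining 130 had no profile in 1 or both of these libraries. Members were chosen by presence in both tables only, with no measured difference involved.

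RPE1 is a human retinal pigment epithelial line immortalised with telomerase. All cells used here, WT included, were of an iCas9 line with p53 and puro knocked out, per the labels (the p53/puro-dKO background), and were untreated. ChIP-seq against RPB1, the largest RNAPII subunit, had been done with Drosophila chromatin as a spike-in: 40 ng beside 28 µg of chromatin for WT, and 32.6 ng beside 22 µg for CFAP20/CCNC-dKO. A CFAP20-KO library (also 40 ng and 28 µg, 9787 of the 9814 TSSs) is shown beside them. The labels do not say whether the knockout lines were single clones.

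The sample labels gave the RPB1 antibody as an Active Motif product for WT and as a Bethyl product for both knockouts, whereas the protocol text shared by all samples named only the Active Motif product, under the same catalogue number as the spike-in antibody. Antibody and genotype therefore cannot be told apart in a comparison with WT. The CFAP20-KO library shares the antibody label of CFAP20/CCNC-dKO, and both are set against the same WT library. With 1 library per genotype there is no replicate check of the difference and no p-value. An exact two-sided permutation test of 1 library against the 3 WT libraries, taken as double the 1-sided p, could not go below p = 0.5, so none was run.

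As background, RNAPII starts transcription in both directions at many promoters, and the sense polymerase then pauses shortly after the TSS until kinases release it into the gene. Mediator is the coactivator complex that links transcription factors to RNAPII. Cyclin C, the product of CCNC, is the cyclin of the Mediator kinase module, which associates reversibly with core Mediator and pairs cyclin C with CDK8 or CDK19. CFAP20 is a conserved protein first described in cilia and flagella. Neither knockout could be checked at its own promoter: none of the 7 listed Mediator kinase module genes, CCNC among them, had a TSS among those measured, nor did CFAP20.

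The deposited values were spike-in-normalised coverage per 10-bp bin, called density here. Promoter density is the mean from -200 to 500 bp around the TSS, upstream density from -1000 to -200 bp, early body from 500 to 2000 bp and gene body from 2000 to 5000 bp. Pooled gene body values by class include TSSs of genes under 5 kb, where this window runs past the gene end. Gene body medians and counts leave those genes out. Flank density averages the stretches between 2000 and 4500 bp away, before and after the TSS. The WT library was much deeper. Coverage amounted to 6762047 equivalent fragments in WT, 1184075 in CFAP20/CCNC-dKO (17.5% of WT) and 846116 in CFAP20-KO (12.5%). A promoter above the median density held a median of 116 fragments in WT and 16.5 in CFAP20/CCNC-dKO. 95% intervals below are Clopper-Pearson intervals from these fragments and cover counting error only. Fragment length was estimated from isolated fragments in the coverage, of which WT had only 176. The estimate for WT was 145 bp. For CFAP20/CCNC-dKO it was 319 bp, from 822 isolated fragments, while CFAP20-KO gave 298 bp from 2164. The equivalent fragments, the counting intervals and the widened WT profile all rest on these estimates. Longer fragments lower and widen a peak, so peak shapes were also compared with a WT profile widened to the fragment length of CFAP20/CCNC-dKO.

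The promoters of 4 genes are shown because the single-gene results return to them: CYR61 and EIF1 held the most RNAPII, CMAS was among the most lowered in CFAP20/CCNC-dKO, and EDN1 was the most raised. Each is the stretch of 150 bases that ends just before the listed TSS, 5′ to 3′ on the gene's strand, read from the hg38 reference. Capitals mark matches, on either strand, to the searched motifs given further on.
CYR61 (chr1:85580611-85580760, + strand): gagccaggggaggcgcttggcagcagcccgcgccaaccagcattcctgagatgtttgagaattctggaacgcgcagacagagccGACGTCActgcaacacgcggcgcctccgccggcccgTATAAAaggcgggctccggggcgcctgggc
EIF1 (chr17:41688743-41688892, + strand): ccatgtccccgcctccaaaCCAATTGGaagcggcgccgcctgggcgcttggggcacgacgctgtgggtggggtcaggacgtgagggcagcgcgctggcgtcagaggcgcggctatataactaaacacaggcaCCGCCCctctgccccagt
CMAS (chr12:22046024-22046173, + strand): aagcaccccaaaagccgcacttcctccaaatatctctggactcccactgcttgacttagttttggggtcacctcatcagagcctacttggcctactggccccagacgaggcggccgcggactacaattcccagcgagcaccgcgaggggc
EDN1 (chr6:12290213-12290362, + strand): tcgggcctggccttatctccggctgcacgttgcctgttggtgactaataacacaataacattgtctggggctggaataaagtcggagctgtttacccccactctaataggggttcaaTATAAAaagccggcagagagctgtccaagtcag
The CYR61 stretch held a TATAAA that started 30 bases before the TSS and a cAMP response element at 66 bases before it. EDN1 held a TATAAA at 33 bases before the TSS. EIF1 held 2 overlapping CCAAT matches on opposite strands, at 131 and 128 bases before the TSS, and a GC box at 18 bases. CMAS had no whole match inside the printed stretch, but a GC box started 4 bases before its TSS and ran past the printed end, and another started 8 bases after the TSS.

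RNAPII density was lower in CFAP20/CCNC-dKO than in WT around the TSS and nearly equal away from it. Over all TSSs, mean promoter density was 0.803 in WT, 0.652 in CFAP20/CCNC-dKO, against 0.833 in CFAP20-KO. The CFAP20/CCNC-dKO to WT ratio was 0.812 (0.807 to 0.817). Upstream density was 0.516 in WT but 0.482 in CFAP20/CCNC-dKO, and early body density 0.467 and 0.441, with ratios of 0.933 and 0.945. In the gene body the values were 0.402 and 0.40, a ratio of 0.996 (0.992 to 0.999), and far upstream, from -5000 to -3000 bp, 0.383 and 0.371. The difference was thus concentrated at the promoter window on the deposited scale, with intermediate values on both of its sides.

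In steps of 100 bp the ratio was lowest just after the TSS. From 0 to 100 bp the density was 1.02 in WT but 0.71 in CFAP20/CCNC-dKO, a ratio of 0.698, and from 100 to 200 bp the ratio was 0.717. It was 0.87 from 200 to 300 bp, stayed between 0.88 and 0.901 out to 900 bp, and reached 0.984 from 1400 to 1500 bp. Before the TSS it was 0.854 from -100 to 0 bp and 0.946 from -600 to -500 bp. Against CFAP20-KO, whose fragments were of similar length, the profile of ratios was smoother: 0.757 from 0 to 100 bp, 0.78 from -100 to 0 bp and 0.898 from 1400 to 1500 bp.

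The pause peak of the mean profile reached 1.08 in WT, 0.723 in CFAP20/CCNC-dKO, against 0.961 in CFAP20-KO. Above the far upstream level these heights were 0.70, 0.352 and 0.578. The WT profile widened to the longer fragments had a height of 0.574 above that level, close to CFAP20-KO, and CFAP20/CCNC-dKO reached 0.613 of it. Smoothing each profile by the fragment length of the other, an alternative chosen after seeing the data, gave 0.629. Without any correction for fragment length the ratio was 0.502, so the peak was lower in CFAP20/CCNC-dKO with and without the correction, and the correction made the difference smaller.

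**Figure D1:**
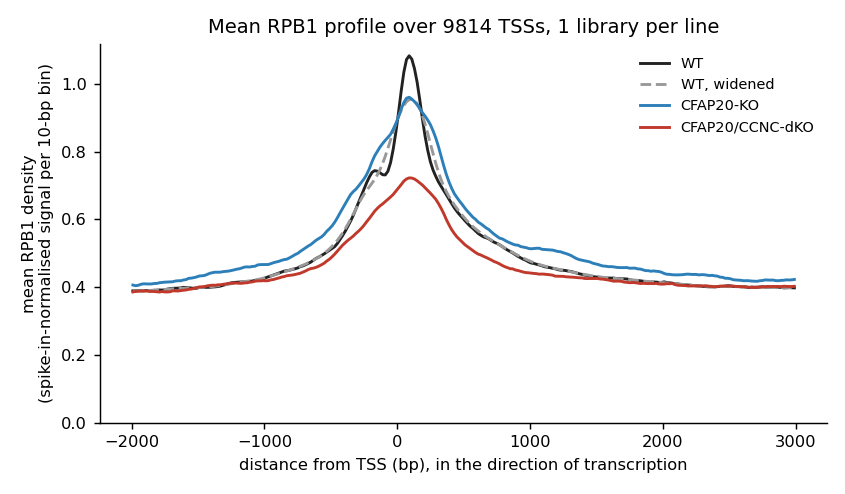
Mean RPB1 density (spike-in-normalised signal, y axis) against distance from the TSS in bp (x axis), 1 library per line, with the WT profile widened to the fragment length of CFAP20/CCNC-dKO as a dashed line. The CFAP20/CCNC-dKO peak of 0.723 lies below the other profiles, and the lines of WT and CFAP20/CCNC-dKO meet beyond about 1500 bp.

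The position of the peak did not differ beyond the bin size. The maximum lay at 80 bp in WT and at 90 bp in CFAP20/CCNC-dKO, and at 100 bp in the widened WT profile, so the sign of this 10-bp difference turned with the correction. The centre of the signal above background was 154 bp in WT and 151 bp in CFAP20/CCNC-dKO. At the 1073 TSSs with at least 50 fragments in both libraries, the centre of signal from -500 to 1000 bp moved by a median of 5.08 bp, with an interquartile range from -42.5 to 51.1 bp and 52.7% of these TSSs shifted downstream.

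The peak was wider in CFAP20/CCNC-dKO, and the difference was smaller once fragment length was matched. Width at 50% of the height was 369 bp in WT, 796 bp in CFAP20/CCNC-dKO, against 792 bp in CFAP20-KO. The widened WT profile measured 649 bp, which left a difference of 147 bp, or 137 bp when each profile was smoothed by the fragment length of the other. CFAP20-KO, with nearly the same fragment length and antibody label, was as wide as CFAP20/CCNC-dKO. WT also showed a separate shoulder before the TSS, the place of divergent initiation. The share of signal above background that lay before the TSS was 32.8% in WT, 33.9% in the widened WT profile, 35.8% in CFAP20/CCNC-dKO, against 35.6% in CFAP20-KO.

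BrU-seq, which labels new RNA, had given the authors a WT value of nascent transcription for the body of each gene. TSSs were placed in 5 classes by it: 3508 with no value (missing or 0) and classes 1 (lowest) to 4 (highest) of equal size among the positive values, with 1576 or 1577 TSSs each. Where no transcription was recorded there was no peak and little difference. Promoter density in the class with no value was 0.306 in WT, 0.295 in CFAP20/CCNC-dKO, against 0.290 in CFAP20-KO, a CFAP20/CCNC-dKO to WT ratio of 0.967 (0.953 to 0.981). In class 1 the densities were 0.372 and 0.358, a ratio of 0.961.

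Among transcribed genes the ratio fell class by class. Class 2 went from 0.714 in WT to 0.602 in CFAP20/CCNC-dKO, a ratio of 0.844 (0.831 to 0.857). In class 3 the densities were 1.36 and 1.04, a ratio of 0.769 (0.760 to 0.778). Class 4 had 1.87 in WT and 1.40 in CFAP20/CCNC-dKO, a ratio of 0.746 (0.738 to 0.753), and 80.0% of its promoters were lower in CFAP20/CCNC-dKO. CFAP20-KO held 1.98 there by the window mean, although its peak maximum, 2.40, was below the WT maximum of 2.86.

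The class trend was smaller once background was taken off. After the density of the class with no BrU-seq value was subtracted in each library, the promoter ratio was 0.752 in class 2, 0.712 in class 3 and 0.703 in class 4. Peak heights relative to the widened WT profile were 0.621, 0.634 and 0.615 in these 3 classes, a range of 0.615 to 0.634. CFAP20-KO stood at 1.09, 1.01 and 0.977 of the widened WT profile in the same classes. Peak positions in classes 2 to 4 were 80, 90 and 80 bp in WT and 130, 90 and 100 bp in CFAP20/CCNC-dKO, the 130 bp being at the lowest and widest of the 3 peaks.

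**Figure D2:**
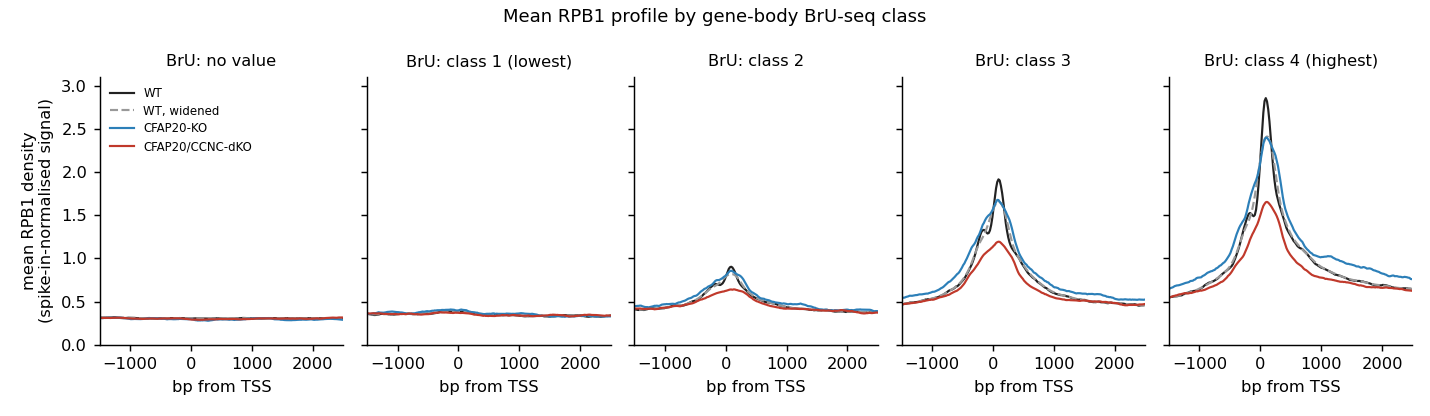
Mean RPB1 density (y axis, spike-in-normalised signal) against distance from the TSS in bp (x axis) in each BrU-seq class, for WT, widened WT, CFAP20-KO and CFAP20/CCNC-dKO, 1 library per line. No library shows a peak in the class with no value or in class 1, and in class 4 the maxima are 2.86 in WT, 2.40 in CFAP20-KO but 1.66 in CFAP20/CCNC-dKO.

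Upstream and early body signal was lower to a lesser degree, and gene body signal was close to WT. In class 4 the ratio was 0.879 (0.868 to 0.890) upstream, 0.886 (0.878 to 0.895) in the early body and 0.965 (0.958 to 0.972) in the gene body. Above the level of TSSs with no BrU-seq value, these became 0.823, 0.833 and 0.943. In class 3 the corresponding gene body ratio was 1.09, with 0.147 in WT and 0.16 in CFAP20/CCNC-dKO. These pooled gene body ratios thus had no common direction across classes. Per TSS, the median log2 gene body ratio was 0.035, 0.039 and 0.037 in classes 2 to 4. These medians cover genes of at least 5000 bp above the median density. In CFAP20-KO gene body density above the level of TSSs with no BrU-seq value was 1.31 times WT in class 3 and 1.28 times in class 4.

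**Figure D3:**
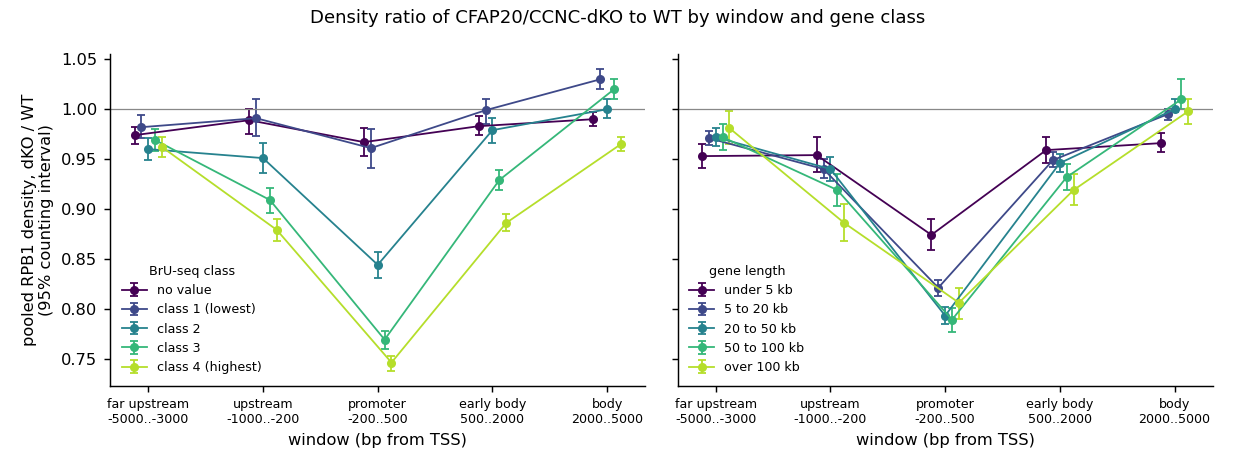
Pooled density ratio of CFAP20/CCNC-dKO to WT (y axis, starting above 0) in 5 windows (x axis, bp from the TSS) by BrU-seq class (left) and gene length (right), with 95% counting intervals. In BrU-seq classes 2 to 4 the lowest point is the promoter window, down to 0.746 in class 4.

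By gene length the promoter ratio was 0.874 (0.859 to 0.890) in the 1335 TSSs of genes under 5 kb, 0.821 in genes of 5 to 20 kb, 0.793 in 20 to 50 kb, 0.789 in 50 to 100 kb and 0.806 (0.790 to 0.821) in the 817 TSSs of genes over 100 kb. The ratio was highest in genes under 5 kb, of whose 1335 TSSs 758 had no BrU-seq value. Over TSSs with a BrU-seq value it was 0.830 (0.813 to 0.848) under 5 kb, between 0.779 and 0.785 in the 3 middle classes and 0.795 (0.780 to 0.811) over 100 kb, so the classes lay closer together. WT promoter density was also lowest in the short genes, 0.627 against 0.952 in genes over 100 kb. Above the level of TSSs with no BrU-seq value the ratio was 0.787 in genes under 5 kb and between 0.707 and 0.729 in the other classes.

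Length and transcription were then combined. Within BrU-seq class 2 the ratio went from 0.977 (0.917 to 1.04) in 149 TSSs of genes under 5 kb to 0.770 (0.746 to 0.795) in 239 TSSs of genes over 100 kb, and WT promoter density from 0.396 to 1.2 alongside. Within class 3 it went from 0.931 in genes under 5 kb to 0.736 in genes of 20 to 50 kb and 0.776 over 100 kb. In class 4, where WT densities lay between 1.74 and 2.11 in every length class, the ratio varied from 0.715 (16 TSSs over 100 kb) to 0.788 (263 TSSs under 5 kb). Length and WT promoter density thus moved together in class 2. In class 3 WT density also stepped up from 0.606 in the shortest genes to 1.56 in 20 to 50 kb and 1.93 over 100 kb, while the ratio did not fall further past 50 kb. The separate parts of length and density were not tested. In genes over 100 kb the upstream ratio was 0.886, the lowest of the length classes, against 0.954 in genes under 5 kb.

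Promoter sequence had no part in the choice of TSSs. The number of CpG dinucleotides from 250 bp before to 50 bp after the TSS was counted on the reference, and TSSs were split into 4 CpG groups of nearly equal size. Among the TSSs of BrU-seq classes 3 and 4, the ratio was nearer to 1 at promoters poor in CpG than at promoters rich in CpG. In the poorest group (0 to 3 CpGs, 257 TSSs) density was 0.648 in WT but 0.60 in CFAP20/CCNC-dKO, a ratio of 0.925 (0.890 to 0.961). In the richest group (23 to 68 CpGs, 1488 TSSs) it was 2.02 and 1.48, a ratio of 0.731 (0.723 to 0.738). Above the level of TSSs with no BrU-seq value the ratios were 0.888 and 0.689.

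The step with CpG was seen within BrU-seq classes too. In class 3 the ratio was 0.997 (0.95 to 1.05) for the 175 TSSs poorest in CpG and 0.737 (0.725 to 0.748) for the 706 richest. From the poorest to the richest group it was 0.820, 0.865, 0.754 and 0.726 in class 4, so the poorest group there was not nearest to 1. In class 1 the poorest group had 1.02 and the richest 0.823 (0.786 to 0.863). WT promoter density in class 3 was 0.565 in the poorest group and 1.80 in the richest, and the part of density in the step was not tested. CFAP20-KO to WT ratios in class 3 were 1.02 and 1.03. The WT libraries themselves differed in this respect. Over TSSs measured in all WT libraries, promoter over flank in the CpG-richest group divided by that in the CpG-poorest group was 3.47, 2.72 and 4.01 in WT replicates 1 to 3, 2.71 in CFAP20/CCNC-dKO, against 3.42 in CFAP20-KO, so CFAP20/CCNC-dKO lay next to WT replicate 2, the lowest WT library. Over BrU-seq classes 3 and 4 alone, with 44 TSSs in the CpG-poorest group, it was 3.27, 2.89 and 3.65 in WT, 2.6 in CFAP20/CCNC-dKO, against 3.09 in CFAP20-KO, and CFAP20/CCNC-dKO was below all 3 WT libraries.

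Single motifs divided promoters less. TATAAA from -50 to -10 bp was found, on either strand, in 3.44% of all 9814 promoters, and in 56 TSSs of BrU-seq classes 3 and 4. Their promoter density was 2.32 in WT but 1.84 in CFAP20/CCNC-dKO, a ratio of 0.793 (0.757 to 0.831), against 0.755 (0.749 to 0.760) without it. Upstream density of the TATAAA promoters was 0.727 and 0.739, a ratio of 1.02 (0.947 to 1.09), while promoters without it had 0.891. GGGCGG, the GC box, was searched from -250 to 50 bp and found in 36.7% of promoters, with ratios in BrU-seq classes 3 and 4 of 0.734 with it and 0.803 without. CCAAT from -150 to -20 bp (22.2%) gave 0.772 with and 0.751 without. The ETS core CCGGAA (13.0%) gave 0.734 and 0.764. TGACTCA, an AP-1 site (5.09%), gave 0.811 and 0.754, GCATGCG, the NRF1 core (2.95%), 0.777 and 0.754, and TGACGTC, the core of the cAMP response element (2.86%), 0.769 and 0.755. These 3 were searched from -250 to 50 bp on both strands, as was CCGGAA. GC boxes add CpGs, so GC box and CpG classes overlap.

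Promoters that share their upstream region with a gene on the other strand had much the same ratio as the rest at the promoter itself. A GENCODE 44 protein-coding gene on the opposite strand started within 1000 bp before 245 TSSs, and a lncRNA gene before another 316. In BrU-seq classes 3 and 4 the promoter ratio was 0.764 for the first, 0.754 for the second and 0.755 for the remaining TSSs. Upstream, where the partner's own polymerase lies, the ratios were 0.821 (0.792 to 0.851), 0.863 (0.835 to 0.892) and 0.901 (0.892 to 0.910). WT upstream density was 1.18 at the first and 0.789 at the last, so the lower ratio went with the higher WT density.

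The spread between WT libraries could be read at 1577 TSSs of genes of at least 5000 bp that lie in windows around replication origins, where 3 WT libraries had been deposited in 200-bp bins. No source used here states their scale, so only ratios within a library were taken. Promoter over flank density was 2.60, 2.05 and 3.03 in WT replicates 1 to 3 (2.56 ± 0.488, SD, n = 3), 2.03 in CFAP20/CCNC-dKO, against 2.57 in CFAP20-KO. The CFAP20/CCNC-dKO value was below all 3 WT libraries, next to that of WT replicate 2, and lay 1.08 SD under the WT mean. The difference from the WT group was therefore close to the spread between WT libraries. In BrU-seq class 2 CFAP20/CCNC-dKO, at 1.76, was inside the WT range of 1.67 to 2.53.

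Promoter over gene body density gave the same order. It was 2.56, 2.03 and 2.91 in WT (2.50 ± 0.443, SD, n = 3), 1.97 in CFAP20/CCNC-dKO, against 2.48 in CFAP20-KO. At the 1098 of these TSSs above the median density, the log2 difference between CFAP20/CCNC-dKO and the WT mean was -0.325. Without WT replicate 2 it was -0.472, and without WT replicate 3 it was -0.21, so the size of the difference rests on which WT libraries enter. Upstream over promoter density was 0.585, 0.670 and 0.60 in WT and 0.676 in CFAP20/CCNC-dKO, again next to WT replicate 2.

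Over these 1577 TSSs the early body stood farther from the WT libraries, in SD, than the promoter did. Early body over gene body density was 1.29, 1.26 and 1.40 in WT (1.32 ± 0.0729, SD, n = 3) and 1.19 in CFAP20/CCNC-dKO, with 1.33 in CFAP20-KO. In BrU-seq class 4 (360 TSSs) it was 1.44, 1.42 and 1.53 in WT (1.46 ± 0.0587, SD, n = 3), 1.44 in CFAP20-KO but 1.26 in CFAP20/CCNC-dKO, 3.4 SD below the WT mean and below every other library. In class 3 the values were 1.41, 1.35 and 1.55 in WT and 1.27 in CFAP20/CCNC-dKO. An SD over 3 libraries is imprecise, and this ratio was singled out after its values were seen. Class 1, which has no peak, departed by more SD in another ratio: upstream over promoter was 0.975, 0.95 and 0.973 in WT and 1.03 in CFAP20/CCNC-dKO, 4.86 SD above a WT mean with an SD of 0.014.

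**Figure D4:**
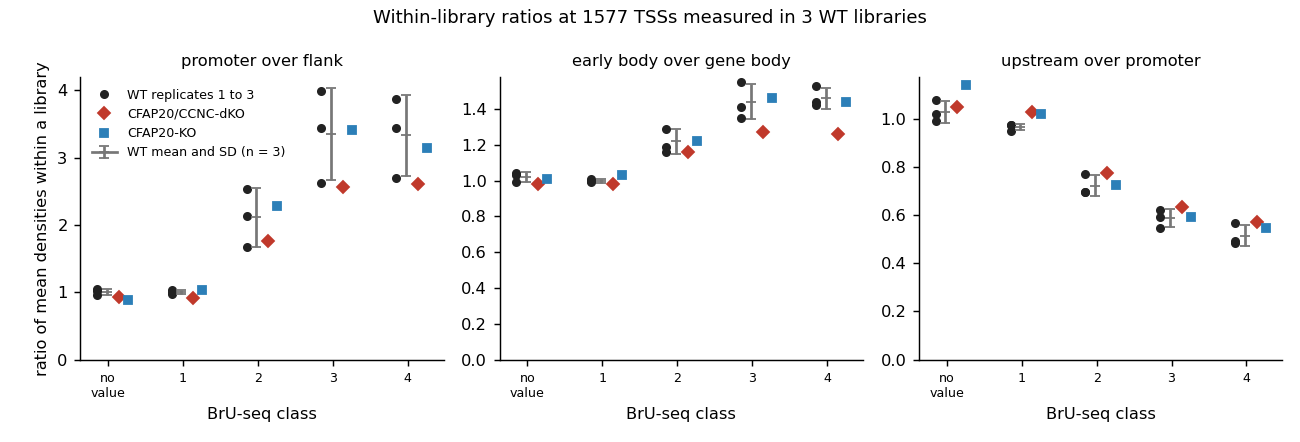
Ratios of mean density within a library (y axis, from 0) by BrU-seq class (x axis): promoter over flank, early body over gene body and upstream over promoter. Circles are WT replicates 1 to 3, bars the WT mean and SD (n = 3), diamonds CFAP20/CCNC-dKO and squares CFAP20-KO. In the middle panel the diamond of class 4 (1.26) lies below all other points of class 4.

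Single promoters scattered widely about the median change, and most of them held few CFAP20/CCNC-dKO fragments. At the 4907 TSSs whose density, averaged over both libraries, exceeded the median, the median log2 ratio (with 0.0409 added to each density) was -0.21, and 63.5% of promoters were lower in CFAP20/CCNC-dKO. With 1 TSS for each of 4903 genes, 971 promoters (19.8%) stood 1.5-fold or more above that median and 844 (17.2%) 1.5-fold or more below it, 37.0% in all. Without centring on the median the split was 637 higher and 1306 lower. With a minimum of 50 WT fragments in place of the density filter it was 561 and 686. That minimum looks at WT alone, so it favours promoters with a high WT value. The density filter lets in weak promoters through a high value in the shallow library: in the class with no BrU-seq value, promoters above it had a median log2 ratio of 0.50, while the pooled ratio of the class was 0.967.

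Among the 8 promoters with the most RNAPII were those of CYR61, EIF1, EEF1A1, MKNK2, PLK2, C19orf24 and ANXA2, and these 7 had a lower value in CFAP20/CCNC-dKO. CYR61, a secreted matrix protein induced by serum, had a promoter density of 13.6 in WT, 12.3 in CFAP20/CCNC-dKO, against 19.4 in CFAP20-KO. Its CFAP20/CCNC-dKO to WT ratio was 0.904 (0.787 to 1.04), an interval that holds no difference. EIF1, a translation initiation factor that acts in start codon selection, had 9.99, 7.99 and 9.63, a ratio of 0.799 (0.673 to 0.945).

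MKNK2, a kinase of the cap-binding factor eIF4E, went from 9.99 in WT to 5.25 in CFAP20/CCNC-dKO, a ratio of 0.526 (0.426 to 0.643), with 13.1 in CFAP20-KO. Its gene body was not lower, at 0.703 in WT and 0.910 in CFAP20/CCNC-dKO. EEF1A1, the elongation factor that brings aminoacyl-tRNA to the ribosome, had promoter densities of 9.67, 6.91 and 9.48 in WT, CFAP20/CCNC-dKO and CFAP20-KO, and ANXA2, a calcium-dependent membrane-binding protein, 7.49, 5.00 and 8.03. C19orf24 had 8.60, 4.78 and 7.16. In these 4 genes CFAP20/CCNC-dKO was the lowest of the 3 libraries.

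PLK2, a polo-like kinase, was lower throughout (chromosome 5, TSS at 58460260, - strand). Promoter density was 9.44 in WT, 5.04 in CFAP20/CCNC-dKO, against 9.03 in CFAP20-KO. Its gene body held 6.17, 2.56 and 5.85, a CFAP20/CCNC-dKO to WT ratio of 0.415 (0.360 to 0.476).

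**Figure D5:**
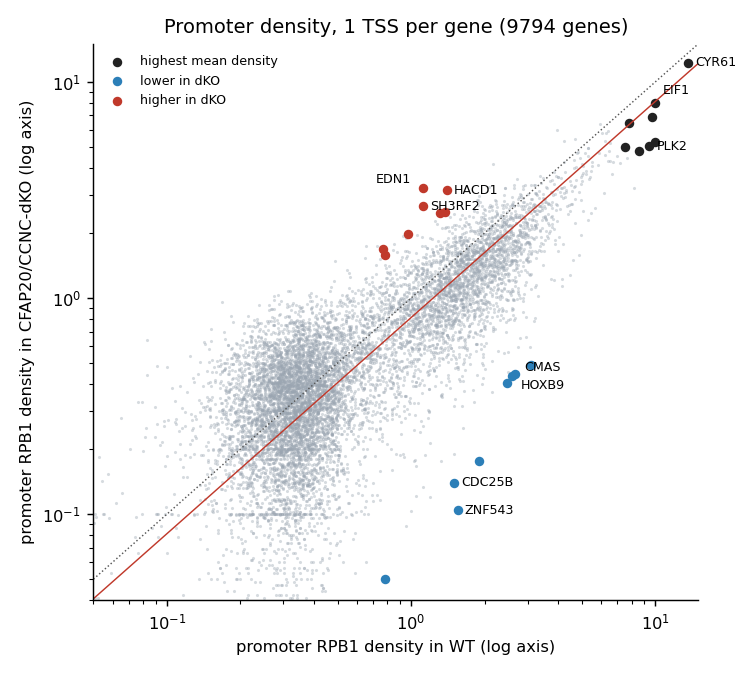
Promoter density in CFAP20/CCNC-dKO (y axis, log) against WT (x axis, log), 1 point per gene, with the line of equality dotted and the pooled ratio of 0.812 as a solid line. Black points are the 8 genes with the highest mean density, all below equality, and blue and red points the 8 lower and 8 higher promoters chosen by their counting intervals. SLC13A3, at 0.0220 in CFAP20/CCNC-dKO, is drawn at 0.05, and grey points under the axis limits are not shown.

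Promoters that departed most from the median were sought among 2897 genes with a WT promoter density of at least 2 times the flank and at least 50 WT fragments, by the interval bound nearest to the median ratio. This pool rests on WT values alone. Promoters high only in WT could enter it, and promoters high only in CFAP20/CCNC-dKO could not. The lowered promoters were those of ZNF543, PNPLA8, CDC25B, DDRGK1, SLC13A3, CMAS, SMOX and HOXB9. Of the 8, 4 (CDC25B, DDRGK1, SLC13A3 and SMOX) lie on chromosome 20, and PNPLA8 on chromosome 7. On these chromosomes flanks were lower at the median, though not at every gene. The flank ratio was 1.07 for SLC13A3, and 1.38 for JPH2, another gene on chromosome 20. The median flank ratio of CFAP20/CCNC-dKO to WT was 0.794 on chromosome 20 and 0.809 on chromosome 7, and pooled promoter ratios were 0.642 and 0.643. CFAP20-KO shared the lower flanks, with median flank ratios to WT of 0.861 and 0.820, and had pooled promoter ratios of 0.851 and 0.857. On every other chromosome measured the median flank ratio was at least 0.936 in CFAP20/CCNC-dKO, against 0.957 in CFAP20-KO.

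Beyond those chromosomes, CMAS, which activates sialic acid, had a promoter density of 2.66 in WT, 0.443 in CFAP20/CCNC-dKO, against 2.25 in CFAP20-KO, a ratio of 0.167 (0.0748 to 0.322) from 8.85 fragments in CFAP20/CCNC-dKO. Its flank ratio was 1.01. HOXB9, a homeobox factor, had 2.59, 0.435 and 1.32, a ratio of 0.168 (0.0747 to 0.327), with a flank ratio of 0.565. ZNF543, a zinc finger gene on chromosome 19, had 1.55, 0.104 and 0.926 with a flank ratio of 0.484. Flanks take in part of the gene body, and the far upstream ratios were 0.823 for HOXB9 and 0.831 for ZNF543.

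On chromosome 20, CDC25B, a phosphatase that activates cyclin-dependent kinases, had 1.5, 0.14 and 0.810 at the promoter in WT, CFAP20/CCNC-dKO and CFAP20-KO, and a flank ratio of 0.328. DDRGK1, part of the UFM1 conjugation pathway, had 3.1, 0.490 and 2.16, and SMOX, spermine oxidase, 2.48, 0.406 and 1.67, with flank ratios of 0.451 and 0.515. PNPLA8, a phospholipase, had 1.90, 0.176 and 0.952, with a flank ratio of 0.594. For SLC13A3, a dicarboxylate transporter, CFAP20/CCNC-dKO held under 0.5 fragments, and the upper bound of its ratio was 0.298. SLC13A3 did not pass the density filter and was listed through its WT density of 0.785.

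The raised promoters were those of EDN1, SH3RF2, HACD1, RPP25, RP5-1119A7.14, TSPAN2, RP5-1070A16.1 and VPS45. EDN1, the precursor of the vasoconstrictor endothelin 1 (chromosome 6, TSS at 12290363, + strand), had 1.12 in WT, 3.23 in CFAP20/CCNC-dKO, against 0.941 in CFAP20-KO, a ratio of 2.88 (2.10 to 3.93). Its early body went from 0.446 to 2.29 and its gene body from 0.378 to 1.45, a ratio of 3.85 (3.04 to 4.87), with 0.605 in CFAP20-KO. Far upstream density was 0.288 and 0.266. EDN1, whose TATAAA is shown above, was thus higher from the promoter through the gene in CFAP20/CCNC-dKO. In CFAP20-KO its promoter and its early body (0.358) were not higher than in WT, while its gene body was.

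Of the other raised promoters, SH3RF2, HACD1, RPP25 and TSPAN2 were high in both knockouts. HACD1, a dehydratase of long-chain fatty acid synthesis, had 1.40 in WT, 3.16 in CFAP20/CCNC-dKO, against 3.15 in CFAP20-KO, a CFAP20/CCNC-dKO to WT ratio of 2.25 (1.65 to 3.04). SH3RF2, an SH3 domain protein, had 1.12, 2.67 and 2.67. RPP25, a subunit of RNase P, had 0.766, 1.68 and 2.04, and the tetraspanin TSPAN2 1.32, 2.47 and 2.90. RP5-1070A16.1 was higher in CFAP20/CCNC-dKO than in both other libraries, with 0.785 in WT, 1.59 in CFAP20/CCNC-dKO, against 0.330 in CFAP20-KO. VPS45, a vesicle trafficking protein, had 1.38, 2.49 and 1.61, and RP5-1119A7.14 0.973, 1.98 and 1.42. Flank density, which takes in part of the gene body, was higher in CFAP20/CCNC-dKO too at several of these genes. The flank ratio was 2.6 for EDN1, 2.41 for HACD1, 1.63 for RP5-1119A7.14, 1.56 for TSPAN2 and 1.44 for SH3RF2. Far upstream, outside the gene body, their ratios in the same order were 0.923, 1.43, 1.17, 1.09 and 0.637. The flank ratio was 1.01 for RP5-1070A16.1, 0.958 for VPS45 and 0.874 for RPP25.

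In gene bodies, 226 of 4375 genes (5.17%) stood 1.5-fold or more above the median log2 ratio of 0.03 and 442 (10.1%) as far below it, 15.3% in all. In the early body 532 of 4903 genes (10.9%) stood above and 761 (15.5%) below by that measure, 26.4% in all. ZFP36L1, which targets AU-rich mRNAs for decay (chromosome 14, TSS at 68794736, - strand), had the most fragments of the 4 lowered genes named by the rule. Its gene body held 8.82 in WT, 2.08 in CFAP20/CCNC-dKO, against 7.74 in CFAP20-KO, a ratio of 0.236 (0.202 to 0.274). Its promoter held 4.74, 3.53 and 5.57, and its far upstream ratio was 1.05. The other 3 lie on chromosomes 7 and 20. ITPA, an inosine triphosphatase that neighbours DDRGK1, had gene body densities of 0.498 and 0.0469 and a flank ratio of 0.257. ZNF679 and RP5-945F2.2, with promoters at background in WT (0.211 and 0.303), had flank ratios of 0.174 and 0.184.

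The raised gene bodies were those of EDN1, SGK1, PALMD and NUPR1. SGK1, a kinase induced by serum and glucocorticoids, had gene body densities of 0.761 in WT, 2.63 in CFAP20/CCNC-dKO, against 1.48 in CFAP20-KO, a CFAP20/CCNC-dKO to WT ratio of 3.46 (2.91 to 4.10). Its promoter held 3.71, 3.48 and 4.83, a ratio of 0.936 (0.715 to 1.21). NUPR1, a stress-induced nuclear protein, had gene body densities of 0.353, 0.960 and 0.726 and a ratio of 2.72 (2.06 to 3.57). PALMD, palmdelphin, had 0.309, 0.892 and 0.403 and a ratio of 2.88 (2.16 to 3.83). SGK1 was also higher before its TSS, with CFAP20/CCNC-dKO to WT ratios of 1.5 upstream and 1.49 far upstream. The higher SGK1 signal was thus not confined to the gene body, although the promoter was not higher. EDN1 was higher at both promoter and gene body.

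Upstream of TSSs, 811 of 4903 genes (16.5%) were 1.5-fold or more above the median ratio and 894 (18.2%) below it, 34.8% in all. RP11-221N13.4 on chromosome 12 went from 6.60 in WT to 0.519 in CFAP20/CCNC-dKO, against 2.21 in CFAP20-KO, a ratio of 0.0786 (0.0402 to 0.139), while its own promoter held 0.711 and 0.556. The other 3 lowered upstream regions, of ZNF138, BPGM and PTPRZ1, lie on chromosome 7 with flank ratios of 0.606, 0.431 and 0.462. Of the raised ones, JPH2, a junctophilin on chromosome 20, had 1.07 in WT, 3.05 in CFAP20/CCNC-dKO, against 1.81 in CFAP20-KO. Its ratio was 2.85 (2.10 to 3.83), with 1.40 and 1.51 at its promoter and a flank ratio of 1.38. RP11-200A1.1, RP11-484L8.1 and RP11-372M18.2 had upstream ratios of 2.95, 2.72 and 2.68.

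Groups of genes with a shared role were read against the background of 19.8% higher and 17.2% lower promoters and a median log2 ratio of -0.21. By sign alone, 63.5% of promoters above the density filter were lower than WT, and this share was 58.9% in BrU-seq class 2, 74.7% in class 3 and 79.8% in class 4, with medians of -0.14, -0.34 and -0.40. Of 26 core Mediator genes, 7 were measured: none was at least 1.5-fold higher and 3 were lower (MED21, MED27 and MED30), with a median of -0.29. MED17, a subunit of the Mediator head, had a promoter density of 2.15 in WT against 2.18 in CFAP20/CCNC-dKO, and MED21 1.64 and 0.836. MED7 had 1.72 and 1.52. The ratio of MED30 was 0.338 (0.129 to 0.734) from only 6.65 fragments.

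Of the general initiation factors and RNAPII subunits, 7 of 41 passed the density filter, with 1 higher, 1 lower and a median of -0.27. GTF2B, which bridges TBP and RNAPII, had 2.24 in WT and 1.85 in CFAP20/CCNC-dKO. CCNH, the cyclin of the TFIIH kinase, had 1.71, 0.874 and, in CFAP20-KO, 2.64, while its partner CDK7 had 1.52, 1.23 and 1.23. Of pausing and elongation factors, 6 of 36 were measured, with 1 higher, 1 lower and a median of -0.54. SUPT5H, a subunit of DSIF, had 0.923 in WT, 1.95 in CFAP20/CCNC-dKO, against 1.76 in CFAP20-KO. CCNT1, the cyclin of P-TEFb, had 2.28, 1.10 and 1.26, and AFF1, of the super elongation complex, 4.70, 2.87 and 5.22. Integrator had 5 of 20 genes measured, with none higher, 1 lower (INTS10, 1.92 and 0.981) and a median of -0.0044.

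Serum response and immediate early genes, which depend on rapid recruitment of Mediator and RNAPII, were measured at 14 of 30 promoters. Of these, 12 were lower in CFAP20/CCNC-dKO than in WT, 3 at least 1.5-fold below the median ratio and 1 above it, with a median of -0.52. Of the 14, 12 are in BrU-seq class 4, where 79.8% were lower, so the count is close to that of the class. EGR1, a zinc finger transcription factor, had 1.70 in WT, 0.577 in CFAP20/CCNC-dKO, against 2.13 in CFAP20-KO, a CFAP20/CCNC-dKO to WT ratio of 0.340 (0.170 to 0.614). KLF10 had 2.81, 1.33 and 2.30, and FOS 2.63, 1.77 and 3.61. KLF2, a Krüppel-like factor, had 6.39, 4.31 and 6.56, and IER5 5.39, 3.65 and 5.60. DUSP5, a phosphatase of MAP kinases, was close to WT at 6.05, 5.81 and 5.05, and ATF3, the member above the median ratio, had 0.423 and 0.662, a ratio of 1.56 (0.779 to 2.93). Gene bodies could be read in 8 of these genes: none was higher and 2 were lower past 1.5-fold.

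Interferon-induced genes had 14 of 26 promoters above the filter, with 2 higher, 1 lower and a median of -0.40. IFIT3 had 2.44 in WT, 1.44 in CFAP20/CCNC-dKO, against 1.83 in CFAP20-KO, and IFIT5 2.45, 1.44 and 2.81, while B2M, the light chain of class I molecules, had 3.13, 2.88 and 3.16. All 5 measured cholesterol synthesis genes were lower in CFAP20/CCNC-dKO with none past 1.5-fold (median -0.43), and 4 of them are in BrU-seq class 4, whose median was -0.40. FASN, the fatty acid synthase, had 5.84 and 4.14. Of hypoxia genes 3 passed the filter and 1 was lower (NDRG1, 4.99 and 2.85).

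No ribosomal protein gene stood far from the median. None of the 13 measured of 77 was 1.5-fold higher or lower, and their median was -0.17. RPS24 had 4.25 in WT and 4.28 in CFAP20/CCNC-dKO, RPL19 2.91 and 2.57, and RPS14 3.19 and 2.29. p53 targets, in cells that lack p53 in every group, had 8 of 20 genes measured, with 1 higher (SPATA18), 1 lower (FDXR, 1.67 and 0.627) and a median of -0.0030. SPATA18 had 0.234 in WT, under the filter's 0.409, and passed only through its 0.799 in CFAP20/CCNC-dKO, so its call was fixed by the filter. GADD45A, a stress-response gene, had similar promoter densities of 2.82 and 3.01 but gene body densities of 1.06 in WT, 2.30 in CFAP20/CCNC-dKO, against 2.36 in CFAP20-KO. The single replication-dependent histone gene measured, HIST1H4H, had 4.24 and 5.36.

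Cyclins and cyclin-dependent kinases had 9 of 30 genes measured, with 1 higher, 2 lower and a median of -0.43. CCNG2, cyclin G2, had 3.25 in WT, 1.15 in CFAP20/CCNC-dKO, against 2.26 in CFAP20-KO, a ratio of 0.353 (0.221 to 0.539), and CDC25B is described above. CCND1, cyclin D1, had 5.22, 3.87 and 7.24, with gene body densities of 4.05, 2.80 and 3.35. CCNI had 3.35 and 3.12.

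Axoneme and cilium genes, listed because CFAP20 is a ciliary protein, had the lowest median of the lists with at least 5 genes, -0.72. Of 10 measured (of 36), 9 were lower in CFAP20/CCNC-dKO than in WT and 4 at least 1.5-fold below the median ratio, with none above. In BrU-seq, 3 of the 10 are in class 2, 5 in class 3 and 2 in class 4. BBS2, of the BBSome, had 1.84 in WT, 0.615 in CFAP20/CCNC-dKO, against 1.5 in CFAP20-KO, a ratio of 0.334 (0.171 to 0.594). IFT22 had 1.80, 0.882 and 1.33, on chromosome 7 with a flank ratio of 0.790. IFT57 had 1.33, 0.755 and 1.28 and DYNC2H1, the intraflagellar transport motor, 0.872, 0.291 and 0.596. BBS10 was the exception, at 2.14, 2.38 and 2.76. Their gene bodies had a median log2 ratio of 0.07 over 9 genes, 1 higher and none lower. The list is small, its members held 5.8 to 47.4 fragments each in CFAP20/CCNC-dKO, and it was compared with no other list by a test. Like the other lists, it was chosen with earlier results of these data known.

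Markers of the tissue of origin mostly had low promoter density in WT and CFAP20/CCNC-dKO. Of 15 retinal pigment epithelium markers 6 were measured, and 4 of them passed the density filter. RPE65, RLBP1, TTR and LRAT had promoter densities of 0.340 to 0.465 in WT and 0.297 to 0.484 in CFAP20/CCNC-dKO. The means of TSSs with no BrU-seq value were 0.306 in WT and 0.295 in CFAP20/CCNC-dKO. OTX2, a transcription factor of this epithelium, had 1.68 in WT, 1.01 in CFAP20/CCNC-dKO, against 1.81 in CFAP20-KO. The 5 measured markers of blood cells and the 3 of hepatocytes had 0.234 to 0.424 in WT. Among mesenchymal and epithelial line markers, LOX had 2.52, 2.59 and 3.53 and ITGA5 2.31, 1.66 and 2.34. Of the neuron markers, SNAP25 had 1.05 in WT and 0.121 in CFAP20/CCNC-dKO, and lies on chromosome 20 with a flank ratio of 0.397.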

How the data were processed

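RPB1 ChIP-seq coverage was deposited by the authors as a spike-in-normalised signal per 10-bp bin around TSSs (hg38, replicate 1 of each genotype) and per 200-bp bin around replication origins (WT replicates 1 to 3, their normalisation is not stated). Gene length and a WT BrU-seq gene body signal came from the authors' deposited TSS table. The submitters' processing notes name BWA 0.7.17 and HOMER 4.8.2 among other tools, without saying which step each served. Another 2 columns with values of single samples stayed unused.

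Values were whole multiples of 1 step (0.0444 in WT, 0.110 in CFAP20/CCNC-dKO, within 0.02 steps), and signal divided by step and fragment length gave equivalent fragments. Log2 ratios had 0.0409 added, 10% of the median promoter density, which understates changes of low genes. Densities were computed in Python 3.11.15 with NumPy 2.4.6, pandas 2.3.3 and SciPy 1.17.1, and the code was tested on simulated data. WT was widened with a box of 284 bp. Samples were grouped by title.

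Named genes were the 8 with the highest mean promoter density, the 8 lower and 8 higher promoters whose interval bound lay farthest from the median ratio (WT promoter at least 2 times the flank, at least 50 WT fragments), 4 each way for gene body (genes of at least 5000 bp) and upstream density with at least 50 WT fragments there, and up to 4 members of each list with at least 50 WT fragments, those with the most; other list members were named after their values were seen. The members and gene lists were chosen with earlier results of these data known. Alternatives covered pseudocount, filter, windows, scaling, overlap, fragment length and classes. Some named genes and 1 promoter sequence are not reported here.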

Additional observations from a re-analysis of the deposited data

How the results depend on the processing

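The 15 results were recomputed under 109 alternatives, 15 of them chosen after seeing the data. In 94 the value stayed within 1 SD of the WT libraries, 1 bin or 1.5 times a count, in 14 it moved and in 1 its sign turned. For promoter density that SD was 0.323 on the log2 scale, more than the median change of -0.211 itself. Staying within it therefore says little about promoter density, or about the class ratios judged by the same SD. The median log2 ratio of promoter density lay between -0.399 (TSSs of the highest density) and -0.183 (window from -500 to 1000 bp). The upstream to promoter log2 ratio moved from 0.09 to 0.26 in TSSs of the highest density. Peak height moved to -0.668 on the log2 scale when each profile was smoothed by the other's fragment length. Peak position turned from 10 to -10 bp with the widened WT profile. The width difference of 426 bp became 147 bp with widened WT, 315 bp without the top 1% of TSSs, 318 bp with each TSS scaled to a total of 1, 317 bp without TSSs within 10 kb of another, and 137 bp with mutual smoothing. The counts of higher and lower promoters were 637 and 1306 without centring, 403 and 319 at 2-fold, and 1923 and 2016 with no filter, and 561 higher with at least 50 WT fragments. Leaving out single WT replicates gave -0.472 to -0.21 for the promoter to gene body ratio. No paired analysis was possible because WT and CFAP20/CCNC-dKO share only replicate number 1. Depth limits single promoters: 16.5 fragments at the median in CFAP20/CCNC-dKO.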
